A study of Mus musculus with 8 samples.

Results

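Iron storage, uptake and export were followed through 9 genes of 47643 in the deposited table: the ferritin chains Fth1 and Ftl1, transferrin (Trf), the transferrin receptor Tfrc, the iron importer Slc11a2, the iron exporter Slc40a1, the heme-degrading enzyme Hmox1 and the iron regulatory proteins Ireb2 and Aco1. They were chosen by symbol for their role, not by a measured value. All 9 passed the filter on low counts.

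The data are RNA-seq libraries of spinal cord from 8 mice of strain C57BL/6, 1 per animal, made in a study of the small GTPase Arf1 whose title speaks of peroxidated lipids, demyelination and the inflammasome protein NLRP3 in microglia. By the genotype label 4 mice were heterozygous and 4 homozygous, and each title carries an animal number of its own. The treatment text, which is the same for all 8 libraries, gives tamoxifen at 100 mg/kg by intraperitoneal injection as the trigger of Arf1 deletion. The housing text gives ages of 2 to 10 months for the mice as a whole. Strain, tissue, tamoxifen text and age range are thus shared by both groups, and no wild-type or vehicle group was analysed here. The sources used here do not give the Cre line that limits where Arf1 is lost, the time from tamoxifen to dissection, or each animal's age and sex. p-values measure the spread between these 8 libraries.

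Arf1 itself was 334, 296, 322 and 303 CPM (counts scaled to library size by edgeR's TMM factors) in heterozygous replicates 1 to 4. It was 307, 22.5, 22.8 and 39.9 CPM in homozygous replicates 1 to 4. The library labelled homozygous replicate 1 therefore lies inside the heterozygous range and goes against its label. Tests are given over all 8 libraries (4 against 4) and over the 7 that remain without that library (4 against 3). Depth was 29857210 to 37803594 expected counts per heterozygous library and 26321522 to 37879426 per homozygous library. Homozygous replicate 3 had 92.36% of trimmed reads mapped and 2.44% ribosomal bases, where the other 7 libraries had at least 98.33% and at most 0.34%. Markers of neurons (6 genes, summed 5121 to 6371 CPM) and of oligodendrocytes (7 genes, 6670 to 12476 CPM) were high in all 8 libraries. They do not tell spinal cord from other nervous tissue. Markers of choroid plexus and ependyma (4 genes) summed to 195 to 1857 CPM in the heterozygous and 891 to 1671 CPM in the homozygous libraries. Most of that was Ttr, at 175 to 1772 CPM and 853 to 1619 CPM. The source of these transcripts was not tested. In bulk RNA, fewer cells of a type and less RNA per cell cannot be told apart.

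Cells take up iron bound to transferrin through the transferrin receptor, move it out of the endosome with Slc11a2 (DMT1), store it inside shells built of ferritin heavy and light chains, and release it through ferroportin, the product of Slc40a1. Control of these steps is exerted largely after transcription: the iron regulatory proteins, products of Aco1 (IRP1) and Ireb2 (IRP2), bind a hairpin called the iron-responsive element when iron is scarce. Bound in the 5′ UTR they block translation of ferritin and ferroportin, and bound in the 3′ UTR they protect the transferrin receptor mRNA from decay. In the central nervous system oligodendrocytes are known for high iron, ferritin and transferrin, and microglia for iron uptake and storage.

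The hairpin loops are shown because they are the sequences by which iron sets the use of these transcripts, and because the genes that carry them lay on both sides of the comparison that follows. The search, on the sense strand of annotated mouse transcripts (GENCODE M21, GRCm38), asked for a C, any 5 bases, the loop CAGTGN, and 5 bases that can pair with the 5 before the loop, G-T pairs allowed. It found 1 match in the 5′ UTR of Fth1, 1 in the 5′ UTR of Ftl1, 1 in the 5′ UTR of Slc40a1 and 4 in the 3′ UTR of Tfrc. Each is printed 5′ to 3′ on the gene's strand, as 30 bases with the loop in capitals.
Fth1, exon, 5′ UTR, chr19:9982732-9982761, plus strand: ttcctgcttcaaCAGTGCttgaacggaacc
Ftl1, exon, 5′ UTR, chr7:45459778-45459807, minus strand: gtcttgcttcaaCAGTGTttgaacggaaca
Slc40a1, exon, 5′ UTR, chr1:45925464-45925493, minus strand: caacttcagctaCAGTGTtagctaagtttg
Tfrc, exon, 3′ UTR, chr16:32631219-32631248, plus strand: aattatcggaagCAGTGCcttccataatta
Tfrc, exon, 3′ UTR, chr16:32631598-32631627, plus strand: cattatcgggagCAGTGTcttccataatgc
Tfrc, exon, 3′ UTR, chr16:32631663-32631692, plus strand: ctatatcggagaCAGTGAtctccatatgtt
Tfrc, exon, 3′ UTR, chr16:32631710-32631739, plus strand: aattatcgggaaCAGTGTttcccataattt
The pattern occurred in the 5′ UTR of 31 of 20916 genes (0.148%) and in the 3′ UTR of 129 of 21045 genes (0.613%). The pattern was not found in the UTRs of the other 5 genes. That says only that no stretch with this loop and 5 unbroken pairs is in their annotated UTRs. A hairpin with a bulge or mismatch in that stem would be missed, so these genes are not shown to lack the element. A match is a description and not a measured binding site.

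Expression levels were compared between genes in TPM, the deposited measure that corrects for transcript length. Over the 8 libraries Fth1 had a mean of 5315 TPM and ranked 20 among the 47643 genes, so ferritin heavy chain mRNA was among the most abundant transcripts of the cord. Trf followed with 529 TPM (rank 195) and Ftl1 with 523 TPM (rank 197). Tfrc had 47.4 TPM, Ireb2 19.1 TPM, Slc11a2 16.5 TPM, Aco1 13.1 TPM, Hmox1 6.60 TPM and Slc40a1, the only exporter, 3.87 TPM (rank 11620). In the heterozygous libraries the TPM ranges of Trf and Ftl1 overlapped, as did those of Ireb2 and Slc11a2. The other neighbours in this order did not overlap there.

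Homozygous against heterozygous is the comparison that the labels give. Over 8 libraries none of the 9 genes passed edgeR's quasi-likelihood test in either direction, against 0% of 16511 genes tested that were called higher and 0% called lower. At an unadjusted p under 0.05 there were 4 of the 9, with Fth1, Ftl1 and Tfrc on the higher and Slc40a1 on the lower side, where 16.8% of all genes reached it. DESeq2, on the same 8 libraries, called Fth1 higher (1.82% of its genes were called higher) and Slc40a1 lower (2.75% lower). Over 7 libraries edgeR called Fth1 higher and no gene of the 9 lower, against 0.55% of 16560 genes called higher and 0.67% lower. The same 4 genes were under an unadjusted p of 0.05 (19.5% of all genes). The median log2 fold change of the 9 was -0.044 over 8 libraries and -0.028 over 7, beside 0.0015 and 0.0027 for all genes tested.

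**Figure D1:**
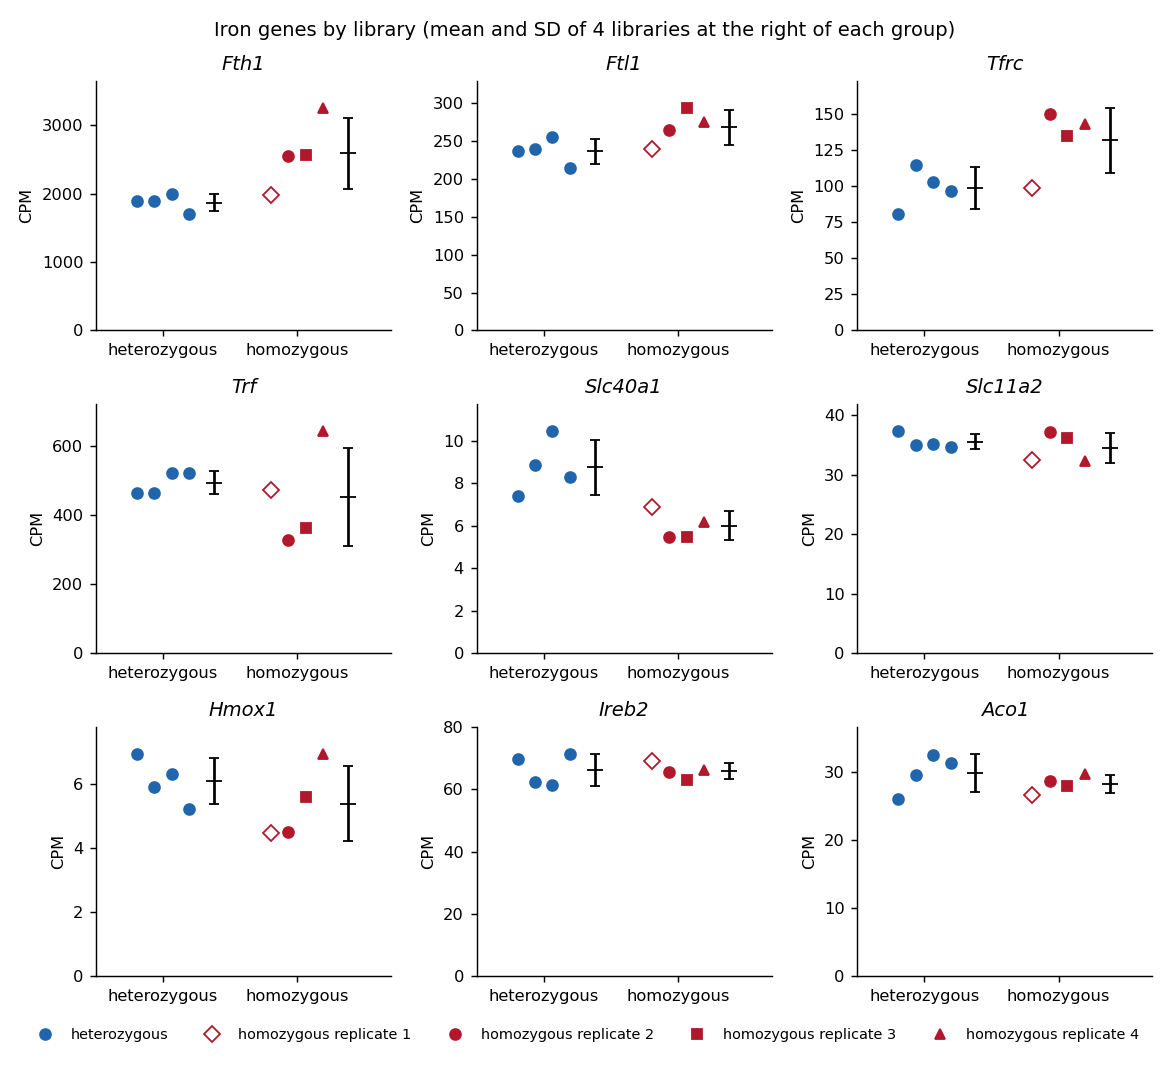
TMM-scaled CPM (vertical axes, from 0) of the 9 iron genes in each library, by genotype label (horizontal axis), with the mean and SD of the 4 libraries of a group at its right. The open diamond is homozygous replicate 1, whose Arf1 goes against its label; Fth1 reached 3258 CPM in homozygous replicate 4, and Slc40a1 was below the heterozygous range in all 4 homozygous libraries.

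Ferritin heavy chain, the subunit whose ferroxidase site oxidises iron for storage, is encoded by Fth1 (chromosome 19, 9980598 to 9985098, plus strand). Fth1 stood at 1889, 1889, 1999 and 1708 CPM in heterozygous replicates 1 to 4. It stood at 1985, 2549, 2564 and 3258 CPM in homozygous replicates 1 to 4. Homozygous replicates 2 to 4 were all above the heterozygous range, and replicate 1 was inside it. Heterozygous libraries averaged 1871 ± 121 CPM (SD, n = 4), against 2589 ± 521 CPM in the 4 homozygous libraries (SD, n = 4) and 2790 ± 405 CPM in homozygous replicates 2 to 4 (SD, n = 3). Over 8 libraries the log2 fold change was 0.47 (SE 0.129, 95% interval 0.18 to 0.75, edgeR adjusted p = 0.144). Over 7 libraries Fth1 rose 1.49-fold, a log2 fold change of 0.58 (SE 0.103, interval 0.35 to 0.81, edgeR adjusted p = 0.0372). The call did not hold without heterozygous replicate 2 (adjusted p = 0.0851), 3 (0.0685) or 4 (0.0885), without homozygous replicate 2 (0.0803) or 3 (0.0909), with the Xist level as a covariate (0.0774) or by limma on log2(TPM + 1) (0.102), while the log2 fold change stayed between 0.34 and 0.64.

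The light chain, which helps mineralise iron within the shell, is encoded by Ftl1 (chromosome 7, 45457944 to 45459884, minus strand). Ftl1 stood at 237, 239, 255 and 214 CPM in heterozygous replicates 1 to 4 and at 239, 264, 294 and 274 CPM in homozygous replicates 1 to 4. Homozygous replicates 2 to 4 again lay above the heterozygous range, by less than Fth1, and replicate 1 inside it. The log2 fold change was 0.18 over 8 libraries (SE 0.077, edgeR adjusted p = 0.277) and 0.23 over 7 (SE 0.075, interval 0.06 to 0.40, edgeR adjusted p = 0.143), so Ftl1 did not pass the test. On the TPM scale the groups overlapped, with 508 to 549 TPM in the heterozygous and 500 to 556 TPM in the homozygous libraries, and the fitted difference was -0.0014 over 8 libraries and 0.0066 over 7. That scale moved the median of all genes to -0.14 over 8 and -0.17 over 7 libraries. The 11 rows picked by symbol as ferritin copies (Fth-ps2, Ftl2-ps or a name that begins with Fthl17) had at most 1.33 expected counts in any library. Copies under other symbols were not counted.

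Within each library the ratio of the chains, Fth1 over Ftl1 in TPM, was 9.21, 9.13, 9.05 and 9.19 in heterozygous replicates 1 to 4. It was 9.61, 11.1, 10.1 and 13.7 in homozygous replicates 1 to 4. The ratio was nearly constant among heterozygous cords (9.14 ± 0.0701, SD, n = 4) and higher and more spread among homozygous ones (11.1 ± 1.83, SD, n = 4), without overlap even with replicate 1 included. This ratio was chosen after earlier results were known and carries no test.

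**Figure D2:**
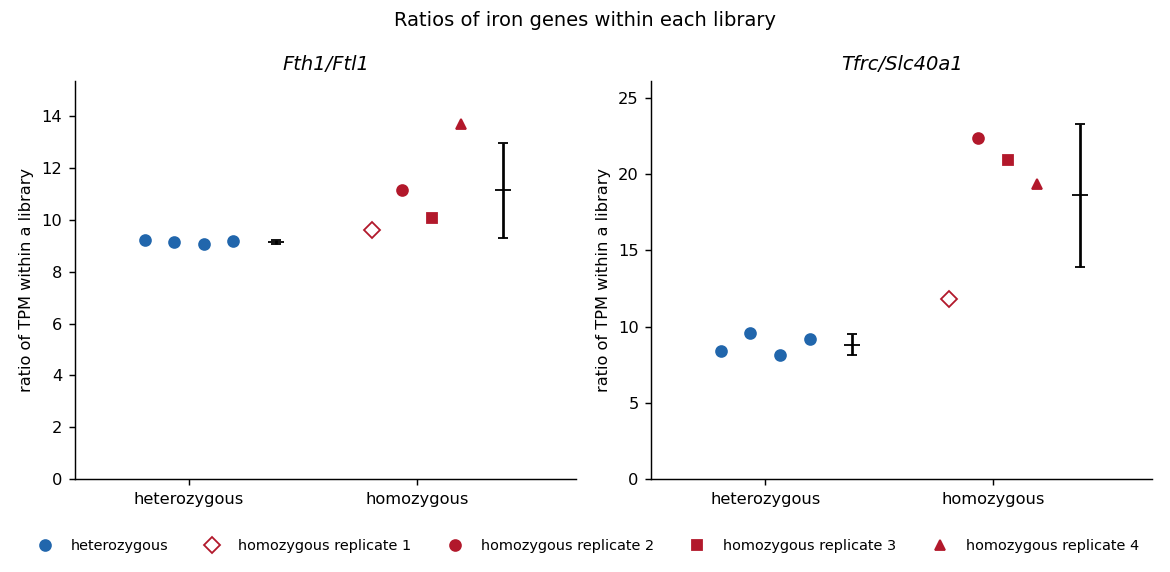
Ratio of TPM within each library (vertical axes, from 0) for Fth1 over Ftl1 and for Tfrc over Slc40a1, by genotype label, with the mean and SD of the 4 libraries of a group at its right. Heterozygous ratios lie between 9.05 and 9.21 for the ferritin chains and between 8.13 and 9.55 for receptor over exporter, and all homozygous ratios lie above them.

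The transferrin receptor, which carries iron-loaded transferrin into the cell, is encoded by Tfrc (chromosome 16, 32608920 to 32632794, plus strand). Tfrc stood at 80.5, 115, 103 and 96.9 CPM in heterozygous replicates 1 to 4. In homozygous replicates 1 to 4 it stood at 99.2, 150, 135 and 143 CPM. Replicates 2 to 4 exceeded the highest heterozygous library and replicate 1 did not. The log2 fold change was 0.42 over 8 libraries (SE 0.140, interval 0.10 to 0.73, edgeR adjusted p = 0.201). Over 7 libraries it was 0.53 (SE 0.109, interval 0.29 to 0.77), just outside the threshold (edgeR adjusted p = 0.0524). DESeq2 over 7 libraries called Tfrc higher (adjusted p = 0.000609), along with Fth1, where 2.77% of its genes were called higher.

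Transferrin, the carrier that oligodendrocytes make in the cord, is encoded by Trf (chromosome 9, 103204001 to 103230444, minus strand). Trf stood at 464, 465, 521 and 523 CPM in heterozygous replicates 1 to 4 and at 473, 329, 362 and 644 CPM in homozygous replicates 1 to 4. Homozygous replicates 2 and 3 lay below every heterozygous library, while replicate 4 lay above every one of them. The SD was 33.2 CPM among heterozygous and 142 CPM among homozygous libraries (n = 4 each), and the log2 fold change of -0.13 (SE 0.190, interval -0.56 to 0.31) did not pass edgeR's test (adjusted p = 0.766). Over 7 libraries it was -0.15 (SE 0.219, interval -0.65 to 0.36, edgeR adjusted p = 0.739). Homozygous replicate 4 decided this value: without it, in the 6 libraries left, the log2 fold change was -0.52 and passed (edgeR adjusted p = 0.0250). With homozygous replicate 1 kept and replicate 4 left out it was -0.35 and did not pass (edgeR adjusted p = 0.248). With homozygous replicate 1 kept and replicate 2 left out it was 0.0026.

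The summed level of 7 oligodendrocyte markers (Mbp, Mag, Mog, Mobp, Cnp, Opalin and Ermn) moved with Trf. It was 7876 to 8864 CPM in the heterozygous libraries and 8857, 6670, 7395 and 12476 CPM in homozygous replicates 1 to 4, so the homozygous libraries came in the same order for Trf and for these markers. Mbp and Mobp made up most of this sum, at 8234 and 3296 CPM in homozygous replicate 4. In that library Mog (94.0 CPM), Cnp (399 CPM) and Opalin (18.7 CPM) lay inside the heterozygous range. Mobp was the 1 marker of the 7 with a positive log2 fold change (0.36 over 8 libraries and 0.40 over 7). The median of the 7 was -0.26 over 8 libraries and -0.29 over 7. None of the 7 markers passed edgeR's test over 8 or over 7 libraries. Microglia markers (7 genes) came in that order too, at 280, 233, 243 and 299 CPM in homozygous replicates 1 to 4. With the mean log2-CPM of a list, Trf had a Pearson's r over 8 libraries of 0.95 for oligodendrocyte markers. It was 0.87 for microglia and 0.74 for endothelial markers. The part of any of these cells in the Trf values was not tested.

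Slc11a2 (chromosome 15, 100387898 to 100425072, minus strand) encodes the divalent metal transporter that moves iron out of endosomes. Its level was 37.4, 35.0, 35.2 and 34.6 CPM in heterozygous and 32.4, 37.2, 36.2 and 32.4 CPM in homozygous replicates 1 to 4. Homozygous replicates 1 and 4 lay just under the heterozygous range and replicates 2 and 3 inside it, and the log2 fold change was -0.044 over 8 libraries (SE 0.066, interval -0.19 to 0.10, edgeR adjusted p = 0.761). Over 7 libraries it was -0.014 (SE 0.071, interval -0.17 to 0.14, edgeR adjusted p = 0.930). In TPM all 4 homozygous libraries (14.0 to 15.2) lay below every heterozygous one (16.8 to 20.7). The share of all genes without overlap in TPM was not counted. Limma on log2(TPM + 1) gave -0.35 over 8 libraries (adjusted p = 0.0800) and -0.34 over 7, where the all-gene median was -0.14 and -0.17. Over 7 libraries it called Slc11a2 lower, beside Slc40a1, on a scale where 12.5% of all genes were called lower.

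Ferroportin, the membrane exporter of iron, is encoded by Slc40a1 (chromosome 1, 45908068 to 45926523, minus strand). Slc40a1 stood at 7.40, 8.88, 10.5 and 8.27 CPM in heterozygous replicates 1 to 4 and at 6.89, 5.47, 5.48 and 6.17 CPM in homozygous replicates 1 to 4. All 4 homozygous libraries, replicate 1 included, lay below the lowest heterozygous one. In CPM Slc40a1 was the only one of the 9 genes whose groups did not overlap over 8 libraries. On that scale 4.61% of all genes were higher and 4.67% lower without overlap. The mean was 8.75 ± 1.29 CPM in the heterozygous and 6.00 ± 0.678 CPM in the homozygous libraries (SD, n = 4 each). The log2 fold change was -0.54 over 8 libraries (SE 0.131, interval -0.83 to -0.25, edgeR adjusted p = 0.130) and -0.62 over 7 (SE 0.138, interval -0.92 to -0.31, edgeR adjusted p = 0.0623). DESeq2 called Slc40a1 lower over 7 libraries (adjusted p = 0.00486), where 4.18% of its genes were called lower. Over 7 libraries 4 of the 9 genes did not overlap in CPM, with Fth1, Ftl1 and Tfrc higher (9.76% of all genes) and Slc40a1 lower (8.78% of all genes).

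The ratio of Tfrc to Slc40a1 in TPM sets the receptor for uptake against the exporter within each library. It was 8.38, 9.55, 8.13 and 9.20 in heterozygous replicates 1 to 4 and 11.8, 22.4, 20.9 and 19.3 in homozygous replicates 1 to 4. The mean was 8.82 ± 0.671 in the heterozygous libraries (SD, n = 4) and 20.9 ± 1.52 in homozygous replicates 2 to 4 (SD, n = 3), with replicate 1 between the groups. As for the ferritin ratio, the pair was chosen with results known, and the values are a description.

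**Figure D3:**
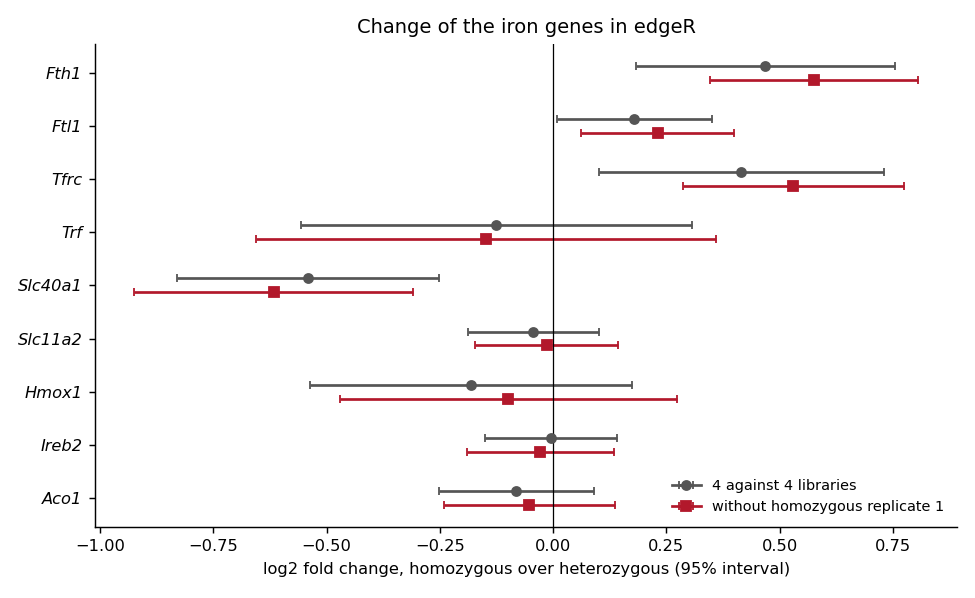
Log2 fold change (horizontal axis) of the 9 iron genes, homozygous over heterozygous, with its 95% interval from edgeR, over 8 libraries (grey circles) and over 7 without homozygous replicate 1 (red squares). The intervals of Fth1, Ftl1, Tfrc and Slc40a1 leave out 0 in both fits before adjustment for many genes, and the intervals of the other 5 include it.

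Hmox1 (chromosome 8, 75093621 to 75100589, plus strand) encodes heme oxygenase 1, the inducible enzyme that frees iron from heme. Hmox1 stood at 6.95, 5.92, 6.30 and 5.21 CPM in heterozygous and 4.47, 4.50, 5.60 and 6.95 CPM in homozygous replicates 1 to 4. Homozygous replicates 1 and 2 lay below the heterozygous range, and homozygous replicate 4 was as high as the highest heterozygous library. The log2 fold change was -0.18 over 8 libraries (SE 0.161, interval -0.54 to 0.17, edgeR adjusted p = 0.588) and -0.099 over 7 (SE 0.167, interval -0.47 to 0.27, edgeR adjusted p = 0.772). These intervals leave room for a change of either sign.

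The genes of the iron regulatory proteins stood at like CPM levels in both groups. Ireb2 (chromosome 9, 54863789 to 54912530, plus strand) stood at 69.8, 62.2, 61.5 and 71.5 CPM in heterozygous and 69.3, 65.5, 63.1 and 66.3 CPM in homozygous replicates 1 to 4. Aco1 (chromosome 4, 40143081 to 40198338, plus strand), whose product is also the cytosolic aconitase when it holds an iron-sulfur cluster, stood at 26.0, 29.6, 32.6 and 31.3 CPM in heterozygous and 26.6, 28.7, 27.9 and 29.8 CPM in homozygous replicates 1 to 4. For both genes every homozygous library lay within the heterozygous range in CPM, but not in TPM. In TPM Ireb2 was at 18.1 to 23.3 in the heterozygous libraries and at 20.3, 17.1, 15.7 and 18.5 in homozygous replicates 1 to 4. Aco1 was at 12.5 to 15.7 TPM and at 12.4, 11.7, 10.7 and 12.8 TPM. That scale moved the median of all genes to -0.14 over 8 and -0.17 over 7 libraries. The log2 fold change over 8 libraries was -0.0043 for Ireb2 (SE 0.066, interval -0.15 to 0.14, edgeR adjusted p = 0.981). For Aco1 it was -0.081 (SE 0.078, interval -0.25 to 0.090, edgeR adjusted p = 0.617). Over 7 libraries the values were -0.028 and -0.053 (edgeR adjusted p = 0.859 and 0.758).

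Markers of other cells moved alongside several of these genes. Over 7 libraries 4 of 5 markers of activated microglia, Clec7a, Cst7, Itgax and Cd68, rose in edgeR's test, beside 0.55% of all genes called higher, and Lpl had a log2 fold change of 0.53 that did not pass (adjusted p = 0.204). Over 8 libraries none of the 4 markers tested passed (edgeR adjusted p = 0.130 for Clec7a, 0.118 for Itgax, 0.135 for Cd68 and 0.264 for Lpl), and Cst7 was too low to be tested. The summed level of the 5 was 32.0, 21.9, 21.8 and 21.4 CPM in heterozygous and 29.2, 38.2, 37.8 and 52.7 CPM in homozygous replicates 1 to 4. Lpl made up most of this sum, at 14.5 to 24.8 CPM in the heterozygous and 20.6 to 29.5 CPM in the homozygous libraries, with overlap. Itgax was highest in homozygous replicate 3 (2.62 CPM). Homozygous replicate 4 was highest for the sum and for Fth1. General microglia markers (7 genes) did not move that way, with 265 to 319 CPM in the heterozygous and 233 to 299 CPM in the homozygous libraries, and Tmem119 fell over 7 libraries (log2 fold change -0.56, edgeR adjusted p = 0.0462) but did not pass over 8 (-0.39, adjusted p = 0.229). Astrocyte markers (5 genes) summed to 3123 to 3637 CPM in the heterozygous and 2882 to 3553 CPM in the homozygous libraries, and none passed. Their median log2 fold change was -0.18 over 8 libraries and -0.21 over 7. Over 7 libraries Slc1a2 (-0.33), Aqp4 (-0.30) and Gja1 (-0.21) were negative, and Aldh1l1 (0.092) and Gfap were positive. Gfap was at 316 to 417 CPM in the heterozygous libraries. It was at 303, 594, 567 and 1352 CPM in homozygous replicates 1 to 4, so replicate 4 was highest here too. Its log2 fold change was 0.92 over 8 libraries (edgeR adjusted p = 0.329) and 1.17 over 7 (0.117). The part of activated microglia or of astrocytes in the Fth1 values was not tested.

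The homozygous libraries, in which Slc40a1 was low, were also low in fibroblast and Schwann cell markers. Endothelial markers leaned lower with overlapping sums, and so did single markers of neurons. The 4 fibroblast markers summed to 31.7 to 72.8 CPM in the heterozygous and 10.7 to 24.7 CPM in the homozygous libraries, and the 5 Schwann cell markers to 86.2 to 413 CPM and 4.86 to 40.6 CPM. The 5 endothelial markers summed to 135 to 174 CPM in the heterozygous and 80.5 to 151 CPM in the homozygous libraries. All 5 had a negative log2 fold change in both fits (median -0.41 over 8 libraries and -0.43 over 7), and none passed edgeR's test. Tek was at 9.86 to 17.2 CPM in the heterozygous and 4.24 to 9.30 CPM in the 4 homozygous libraries (edgeR adjusted p = 0.144 over 8 and 0.0918 over 7). Its groups did not overlap, where 4.67% of all genes were lower without overlap over 8 libraries. The 6 neuron markers summed to 5121 to 6371 CPM and 5159 to 5717 CPM, and of these Nefm fell over 7 libraries (log2 fold change -0.89, edgeR adjusted p = 0.0223) but did not pass over 8 (-0.67, adjusted p = 0.165). Col3a1 of the fibroblast list and Dhh of the Schwann cell list fell over 7 libraries (edgeR adjusted p = 0.0498 and 0.0256), beside 0.67% of all genes called lower, and did not pass over 8 (adjusted p = 0.0962 and 0.0734). Homozygous replicate 1 was on the low side for fibroblast and Schwann cell markers too, at 17.6 and 9.01 CPM. Red cell markers (5 genes), which bear on blood left in the tissue, ranged from 186 to 467 CPM in the heterozygous and 257 to 715 CPM in the homozygous libraries, and none passed. With the mean log2-CPM of a list, Slc40a1 had a Pearson's r over 8 libraries of 0.88 for endothelial and 0.87 for fibroblast markers. It was 0.85 for neuron, 0.82 for Schwann cell and -0.81 for activated microglia markers. Each r pools both genotypes, so a gap between the groups enters it. Among the homozygous libraries replicate 3 had the highest fibroblast and Schwann cell sums, at 24.7 and 40.6 CPM. Slc40a1 was highest in replicate 1 (6.89 CPM) and was 5.48 CPM in replicate 3. The part of any of these cells in the Slc40a1 values was not tested.

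**Figure D4:**
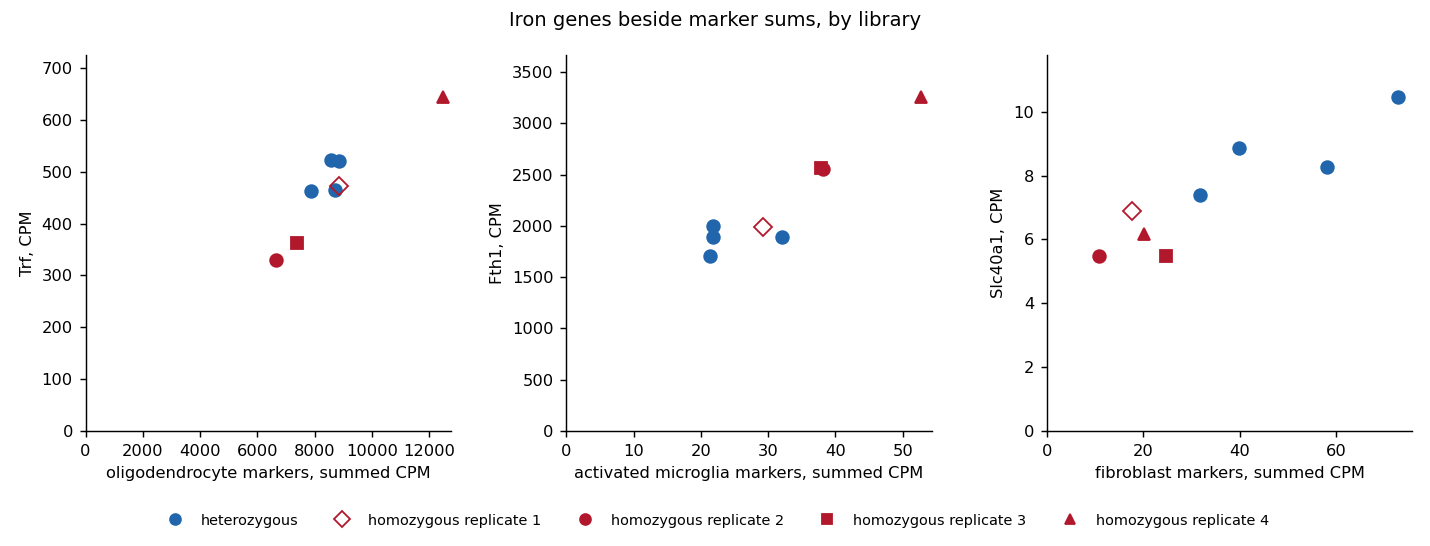
Level of an iron gene (vertical axes, CPM, from 0) against the summed CPM of a marker list in the same library (horizontal axes, from 0): Trf against oligodendrocyte markers, Fth1 against activated microglia markers and Slc40a1 against fibroblast markers. Homozygous replicate 4 (triangle) is highest in Trf at 644 CPM and in Fth1 at 3258 CPM, and the 4 homozygous libraries are lowest in Slc40a1. Mbp makes up most of the oligodendrocyte sum and Lpl most of the activated microglia sum.

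The genes whose log2-CPM followed each of the 9 most closely over the 8 libraries were taken from 12465 candidates by Pearson's r, as a description with both genotypes pooled. Fth1 was most like Nat9 (r = 0.989), the lysosomal macrophage gene Cd68 (0.984) and Serpina3n (0.978), a serine protease inhibitor of reactive astrocytes. Ftl1 was most like 3 ribosomal protein genes, Rps13 (0.995), Rpl27a (0.986) and Rpl22l1 (0.985). Slc40a1 was most like Slco1c1 (0.986), a thyroxine transporter of brain vessels and astrocytes, Tril (0.984) and Ptdss1 (0.975). Tfrc was nearest to Grhl1 (0.973), Trf to Hoxa7 (0.973), Aco1 to Emid1 (0.975), Ireb2 to Abcc1 (0.958), Slc11a2 to Slc25a51 (0.936) and Hmox1 to Fam193b (0.933). The ferritin chains shared none of their 3 nearest genes.

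The wider iron machinery was read from a list of 55 other genes, of which 50 passed the filter on low counts. None of the 50 passed edgeR's test in either direction over 8 or over 7 libraries. At an unadjusted p under 0.05 there were 7 of 50 over 8 libraries, where 16.8% of all genes reached it, and 9 of 50 over 7, where 19.5% did, so neither share exceeded that of all genes. The median log2 fold change was 0.034 over 8 and 0.029 over 7 libraries. Without overlap over 8 libraries were 4 of the 50 on the higher side (4.61% of all genes) and 1 on the lower (4.67%). Over 7 libraries these counts were 4 (9.76% of all genes) and 2 (8.78%). DESeq2 over 8 libraries called 1 gene higher (Lcn2, against 1.82% of its genes) and 1 lower (Steap3, against 2.75%).

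By group, the iron chaperone Pcbp2, which delivers iron to ferritin, had 176 to 190 CPM in the heterozygous and 191 to 206 CPM in the homozygous libraries (log2 fold change 0.13 over 8 libraries and 0.15 over 7, edgeR adjusted p = 0.269 and 0.218). Ncoa4, the receptor that takes ferritin to the lysosome for breakdown, had a log2 fold change of -0.13 over 8 and -0.16 over 7 libraries (edgeR adjusted p = 0.312 and 0.178). In the transferrin cycle Snx3, which recycles the receptor, had -0.037 over 8 and -0.084 over 7 libraries (edgeR adjusted p = 0.840 and 0.589). Steap3, the endosomal ferrireductase, had -0.65 and -0.68 (edgeR adjusted p = 0.134 and 0.0955). Steap3 stood at 4.68 to 6.90 CPM in the heterozygous and 2.87 to 4.21 CPM in the homozygous libraries, without overlap. Over 8 libraries 4.67% of all genes were lower without overlap. Among transporters Slc11a1, the iron and manganese transporter of macrophage phagosomes, was at 1.39 to 1.87 CPM in the heterozygous and 2.09 to 3.10 CPM in the homozygous libraries (log2 fold change 0.57 over 8 and 0.63 over 7, edgeR adjusted p = 0.184 and 0.137), but its sign turned on log2(TPM + 1), to -0.10 and -0.17. In TPM Slc11a1 overlapped between the groups, with heterozygous libraries at 2.01 to 3.98 and homozygous ones at 1.57 to 3.23. Slc22a17 had 0.10 over 8 and 0.13 over 7 libraries (edgeR adjusted p = 0.460 and 0.354). Ncoa4, Steap3, Slc11a1 and Lcn2 were named after their values were seen, the others by their high level.

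Among ferroxidases and related export genes Cp, which oxidises iron leaving through ferroportin, had a log2 fold change of -0.014 over 8 and 0.059 over 7 libraries (edgeR adjusted p = 0.975 and 0.879). Lcn2, a secreted carrier of iron-binding siderophores, was at 0.798 to 1.15 CPM in the heterozygous and 1.61 to 5.72 CPM in the homozygous libraries. Its groups did not overlap, where 4.61% of all genes were higher without overlap over 8 libraries. The log2 fold change of Lcn2 was 2.02 over 8 libraries (edgeR adjusted p = 0.0974) and 1.72 over 7 (0.0558). The 5.72 CPM was that of homozygous replicate 1. In the authors' deposited table Lcn2 is listed with a log2 fold change of 1.63 and a false discovery rate of 0.0132. None of the 9 iron genes is among the 185 genes of the authors' deposited table, whose highest false discovery rate is 0.0936. Hfe of the hepcidin axis (0.14 over 7 libraries), Slc48a1 of heme transport (-0.048), Fbxl5, which marks Ireb2 protein for degradation (0.031), and Isca1 of iron-sulfur cluster assembly (0.099) did not pass edgeR's test (adjusted p = 0.719, 0.727, 0.827 and 0.483). Over 8 libraries their log2 fold changes were 0.11, -0.037, 0.027 and 0.099 (edgeR adjusted p = 0.763, 0.781, 0.842 and 0.449). The small positive values of Pcbp2, Slc22a17, Hfe, Fbxl5 and Isca1 turned negative on log2(TPM + 1) in both fits.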

How the data were processed

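Spinal cord RNA of 8 mice was measured as 1 library each. Per the submitters' processing notes the tools were cutadapt, STAR, RSEM and Picard and the build mm10; their versions and the annotation are not given. The authors deposited RSEM expected counts and TPM per gene for each library, per the file headers; the series table of expected counts held the same values (largest difference 0). RSEM divides reads shared by similar genes, which gave fractional counts for Fth1, Ftl1 and Trf. The authors' deposited comparison table gives log2 fold changes and p-values with false discovery rates. Other deposited values are a sequencing report with percent mapped and percent ribosomal bases and an RNA integrity score.

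Groups come from the genotype label; replicate numbers follow the order of deposition. The set of 7 libraries was chosen from the Arf1 level. Expected counts were rounded and compared with edgeR 4.0.16 in R 4.3.3 (TMM scaling, filterByExpr by group, robust quasi-likelihood fit, Benjamini-Hochberg adjustment over all genes tested, threshold 0.05). CPM are TMM-scaled, and each SE belongs to its log2 fold change. Totals of 26321522 to 37879426 expected counts leave genes near 1 CPM with few counts. Other settings tried were DESeq2's size factors, no low-count filter, a filter of 1 CPM in 4 libraries (3 of 7), DESeq2 1.42.0, limma-voom and limma on log2(TPM + 1) (limma 3.58.1), a fit that was not robust, log2-CPM of Xist as a covariate (not a label of sex), an adjusted p of 0.1, and each library left out. The procedure was tested on simulated counts. Hairpins were searched in GENCODE M21 transcripts (GRCm38, the assembly also called mm10). Python 3.11.15 with pandas 2.3.3 and matplotlib 3.10.9 handled tables and plots.

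The 9 genes and the lists of other iron genes and of cell markers were chosen with earlier results of these data known; 1 oligodendrocyte marker of the list is not reported here and was left out of its sum. Of 56 symbols listed for other iron genes 3 were matched through RefSeq synonyms, which left 55 genes. By rule, all 9 iron genes, any other iron gene past the threshold and otherwise the gene with the highest mean TPM of each list were named, and for each of the 9 the 3 genes with the highest r.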

Additional observations from a re-analysis of the deposited data

Results flagged for a closer look

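In groups of 4 libraries, 48 sets of values were screened for a library far from the other 3, which chance gives in about 1 in 20 sets, and 3 were found. In homozygous replicate 3 the percent of trimmed reads mapped was 92.36% and the percent of aligned bases that are ribosomal was 2.44%. Homozygous replicate 4 had an RNA integrity number of 8, where the other 7 libraries had 9. These are whole numbers, so any 1 library that differs from 3 equal ones is flagged. The rate of 1 in 20 does not hold for that value. No CPM value of the 9 iron genes stood apart in this way. The library with the RNA integrity number of 8 was the one with the highest Fth1 (3258 CPM) and Trf (644 CPM); the part of RNA quality in these values was not tested. Without homozygous replicate 3, over the other 6 libraries, Fth1 had a log2 fold change of 0.63 (edgeR adjusted p = 0.0909).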

How the results depend on the processing

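No paired analysis was possible because the labels give the groups no shared replicate numbers. Over 8 libraries the counts of the 9 iron genes and of the other iron genes past the threshold were 0 in each direction. DESeq2 gave 1 higher and 1 lower among the 9 and 1 higher and 1 lower among the other iron genes, an adjusted p of 0.1 gave 1 other iron gene higher, and leaving out each library in turn gave 0 to 1 of the 9 higher, the 1 being Fth1 without homozygous replicate 1. Over 7 libraries the count of 1 higher among the 9 became 2 with no filter, with DESeq2 and at an adjusted p of 0.1, 0 with the Xist covariate and with limma on log2(TPM + 1), and 0 to 2 with a library left out. The count of 0 lower became 1 with no filter, DESeq2 and an adjusted p of 0.1, 2 with limma on log2(TPM + 1), and 0 to 1 with a library left out. Among the other iron genes the count of 0 higher became 1 with no filter, DESeq2 and an adjusted p of 0.1, and that of 0 lower became 1 with DESeq2 and an adjusted p of 0.1 and 4 with limma on log2(TPM + 1). The cause of these moves was not tested, beyond the looser threshold.

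Signs turned mostly for values near 0, and also for Slc11a1 (0.57 over 8 and 0.63 over 7 libraries in edgeR). With limma on log2(TPM + 1), which shifted the all-gene median to -0.14 over 8 and -0.17 over 7 libraries, the log2 fold changes that turned were, over 8 libraries, Ftl1 -0.0014, Pcbp2 -0.044, Slc22a17 -0.078, Hfe -0.0023, Fbxl5 -0.14, Isca1 -0.077 and Slc11a1 -0.10, and, over 7, Pcbp2 -0.066, Slc22a17 -0.092, Cp -0.098, Hfe -0.022, Fbxl5 -0.17, Isca1 -0.12 and Slc11a1 -0.17. With each library left out of the 8 in turn, the values that crossed 0 ranged from -0.35 to 0.0026 for Trf, -0.039 to 0.034 for Ireb2, -0.087 to 0.0079 for Snx3, -0.12 to 0.15 for Cp and -0.0013 to 0.052 for Fbxl5. With each left out of the 7, they ranged from -0.52 to 0.031 for Trf, -0.054 to 0.039 for Slc11a2, -0.28 to 0.046 for Hmox1, -0.063 to 0.011 for Ireb2, -0.043 to 0.22 for Cp, -0.011 to 0.26 for Hfe and -0.012 to 0.056 for Fbxl5. Fth1 and Tfrc stayed positive and Slc40a1 negative under all alternatives run over 8 and 7 libraries. Genes near 1 CPM, such as Lcn2 and Slc11a1, rest on few counts.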

Other observations

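The other genes that hold the hairpin pattern were counted in the same fits. Of 24 tested genes with a match in the 5′ UTR, Fth1, Ftl1 and Slc40a1 left out, 8 had a positive log2 fold change over 7 libraries, where 8359 of all 16560 genes tested did, with a median of -0.065, and none passed edgeR's test. Of 112 tested genes with a match in the 3′ UTR, Tfrc left out, 47 were positive, with a median of -0.030, 0 were called higher (0.55% of all genes) and 3 lower (0.67% of all genes), Hivep3, Enpp1 and Plekhh1, which were named after their values were seen. Over 8 libraries the counts of positive values were 8 of 24 and 45 of 112, beside 8318 of 16511 genes tested, and none passed.

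The ratio of Trf to Tfrc in TPM, carrier over receptor, was 13.1 ± 1.93 in the heterozygous and 9.80 ± 3.87 in the homozygous libraries (SD, n = 4 each), and the groups overlapped. The ratio of Ireb2 to Aco1 ranged from 1.18 to 1.67 in the heterozygous and from 1.44 to 1.64 in the homozygous libraries.

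Hepcidin, the hormone that removes ferroportin from the membrane, was at or near 0 in these cords: Hamp and Hamp2 reached at most 0.0274 and 0.0548 CPM in the heterozygous libraries and were at 0 in all homozygous libraries. Both were too low to be tested.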
